A study of Mus musculus with 13 samples.

Results

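The 38 genes described here are interferon-induced and antigen presentation genes of the mouse heart. They were chosen by name, with earlier results of these data known. Each listed mouse symbol was matched to its row among the 55471 genes of the deposited count table, and all 38 had a row. The data are bulk RNA-seq of whole mouse hearts in 3 groups. WT control comprised 5 libraries of wild-type mice without drug. R502W control comprised 4 libraries of untreated mice with the R502W change in cardiac myosin-binding protein C, a thick-filament protein of the sarcomere whose human gene is often mutated in hypertrophic cardiomyopathy. R502W mavacamten comprised 4 libraries of R502W mice that received mavacamten, a small-molecule inhibitor of cardiac myosin, at 2.5 mg/kg/day for 21 weeks through the water they drank. The series' design text gives an age of 24 weeks and the extraction protocol names hearts of 3 and 18 weeks. The sources used here do not give the age of each library, zygosity, strain or sex. The labels number the samples of a group and do not state that each came from a separate mouse, so the p-values below measure the spread between these libraries.

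Interferons are secreted signals of infection and immune activation. Type I interferons act through a receptor that activates a complex that includes STAT2 and IRF9 and binds the interferon-stimulated response element (ISRE) in DNA. Interferon gamma, made mainly by T and NK cells, acts through its own receptor and the gamma-activated site (GAS) in DNA, and induces IRF1, which also binds ISRE-like sequences. Both routes induce overlapping sets of genes: GTPases that attack the vacuoles of intracellular pathogens, antiviral effectors, chemokines that draw T cells, and the proteasome subunits, peptide transporter and MHC molecules that present antigen. Cardiomyocytes, endothelial cells and macrophages of the heart can all respond to interferon.

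Promoter sequence is shown first for 7 members, because 4 immunity-related GTPases share an arrangement of both elements and the other 3 stand for groups that behaved differently in the libraries. Sequences are from RefSeq on the GRCm38.p6 assembly, read 5′ to 3′ on the gene's strand. Capitals mark matches to a GAS written as TTCNNNGAA and to an ISRE core, GAAA and GAAA with any 2 bases between them, on either strand, and each stretch is 61 bases long. The Igtp stretch (chr11:58199491-58199551, plus strand) overlaps no gene of the GENCODE M21 annotation. The Irgm2 stretch (chr11:58214882-58214942, plus strand) lies in an intron of the longer Irgm2 gene model. The Tgtp1 stretch (chr11:48992294-48992354, minus strand) lies in an intron of the Tgtp1 model and inside the span of Olfr56, which also spans the Tgtp2 stretch (chr11:49064253-49064313, minus strand). The Rsad2 stretch (chr12:26456532-26456592, minus strand) and the Isg15 stretch (chr4:156200856-156200916, minus strand) overlap no annotated gene, and the B2m stretch (chr2:122147528-122147588, plus strand) lies in the span of Patl2 outside its exons.
Igtp: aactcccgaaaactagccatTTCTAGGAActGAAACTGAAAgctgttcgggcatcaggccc
Irgm2: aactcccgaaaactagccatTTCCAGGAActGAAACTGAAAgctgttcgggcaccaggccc
Tgtp1: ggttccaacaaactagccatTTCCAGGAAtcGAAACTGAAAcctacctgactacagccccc
Tgtp2: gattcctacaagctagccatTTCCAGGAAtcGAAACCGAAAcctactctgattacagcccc
Rsad2: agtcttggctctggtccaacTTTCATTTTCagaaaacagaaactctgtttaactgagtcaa
Isg15: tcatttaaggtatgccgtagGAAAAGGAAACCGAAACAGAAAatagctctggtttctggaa
B2m: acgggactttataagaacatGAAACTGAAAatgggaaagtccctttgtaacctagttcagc

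The 4 GTPase stretches carry a GAS that starts 11 bases before the ISRE core, with 2 bases between them. This spacing was noticed after the sequences were read. It occurred in 5 of 32851 promoter windows of 300 bases (250 before to 50 after the start), or 0.0152% of them: Igtp, Irgm2, Tgtp1, Tgtp2 and Gm12185, another gene of the same GTPase family. The Igtp and Irgm2 stretches were identical at 59 of 61 positions, and the Tgtp1 and Tgtp2 stretches at 47 of 61, so these are related copies and not separate observations. Of the 38 members, 31 were found in the RefSeq promoter table. An ISRE core was present in 19 of them and a GAS in 11, with 8 holding both and 9 neither. Counted per window, 54.3% of 35 member windows held the ISRE core against 3.44% of all windows, and 31.4% held a GAS against 8.30%. A match describes the letters of a window and does not show that a factor binds there.

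Library totals were 15420583 to 18218404 expected counts for WT control, 15350622 to 19361103 for R502W control and 16001651 to 17520706 for R502W mavacamten. Levels below are CPM, the count of a gene scaled to the library's total, here with TMM factors. Cardiomyocyte genes were abundant in all 13 libraries, with Myh6, the alpha myosin heavy chain, between 18136 and 40240 CPM. Markers of tissue outside the ventricle varied between libraries, and 2 libraries stood apart in ways that touch the members, WT control replicate 2 and R502W mavacamten replicate 4. WT control replicate 2 held 558 CPM summed over 14 T cell marker genes, against 8.65 to 17.1 CPM in the other libraries. In a separate list of 6 markers of developing T cells it held 212 CPM, of which 94.0 CPM was Rag1, a gene of developing lymphocytes. R502W mavacamten replicate 4 held 584 CPM summed over 5 adipocyte genes, within the range of the other libraries (4.5 to 626 CPM). Summed over 4 airway epithelium genes it held 23.1 CPM. On that list WT control replicates 2 and 3 and R502W mavacamten replicate 1 held 358, 566 and 141 CPM, and the rest 0.281 to 3.89 CPM. The part of such tissue in the members' levels was not tested. R502W mavacamten replicate 4 is described next.

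R502W mavacamten replicate 4 was the highest of the 13 libraries for all 38 members. Over the 15000 genes tested, it was the highest library for 1485 genes, or 9.9%. For 31 members it was at least 2-fold above the next library, as it was for 122 genes in all (0.813%). The members' median ratio of this library to the median of the other 12 was 8.70, and the ratios ran from 1.95 for H2-D1 to 83.5 for Igtp. The same ratio over all tested genes had a median of 0.993. By the gap to the nearest library of its group divided by the group's range, it lay apart from its group for 32 members. Such a library was found for 6.65% of all tested genes in R502W mavacamten, 5.66% in R502W control and 11.4% in WT control. The members were chosen with earlier results of these data known, so these shares describe the list and are not a test of it. In the other 12 libraries the members' levels differed far less, and 24 of the 38 members were highest in WT control replicate 2, 8 in R502W mavacamten replicate 2 and 4 in R502W control replicate 3. Because 1 treated library carries the mean of its group for most members, each comparison that uses R502W mavacamten is given with and without it.

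**Figure D1:**
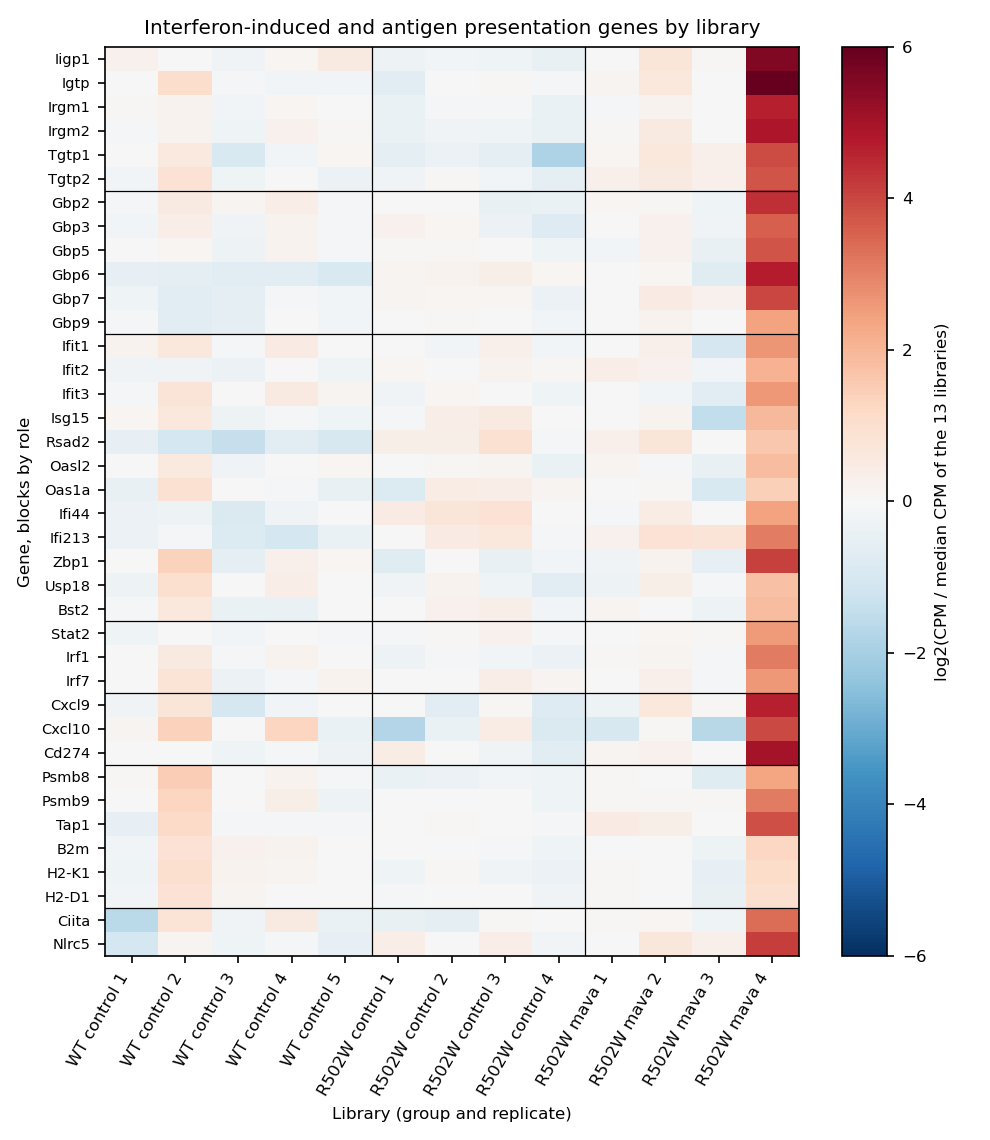
Level of each of the 38 genes (rows, in blocks by role) in each library (columns), as the log2 ratio of CPM to the gene's median over the 13 libraries; the 2 vertical lines separate the groups, and "mava" stands for mavacamten. R502W mavacamten replicate 4 is the highest library in every row, and WT control replicate 2 is the next highest in every row of the class I block.

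Lists of immune cell markers differed in that library. The sum over 12 macrophage genes was 345 CPM there, against 285 to 378 CPM in WT control, 296 to 395 CPM in R502W control and 252 CPM in the lowest of the R502W mavacamten libraries. It was the highest library for 2 of these 12 genes, among them Fcgr1, an interferon-responsive Fc receptor, at 8 CPM against 1.87 to 3.77 CPM elsewhere. The 14 T cell markers summed to 15.9 CPM, inside the 8.65 to 17.1 CPM of the libraries other than WT control replicate 2, and it was the highest library for none of them. The 9 NK and cytotoxic markers summed to 5.08 CPM, against 1.45 to 3.09 CPM in the libraries other than WT control replicate 2, which held 7.50 CPM, and it was the highest for 4. The 6 markers of developing T cells summed to 24.2 CPM, against 2.42 to 20.2 CPM in the libraries other than WT control replicate 2. Most of that sum was Cd1d1, at 23.2 CPM against at most 16.7 CPM elsewhere, while Rag2 and Ptcra had no count. The 7 B and plasma cell markers summed to 150 CPM, against 16.1 to 399 CPM in WT control, 17.8 to 24.0 CPM in R502W control and 79.8, 19.4 and 14.6 CPM in the other treated libraries. Their median ratio to the other 12 libraries was 3.68 (2.37 to 22.5), and replicate 4 was the highest library for none of them. The part of these cell types in the members' levels was not tested. In bulk tissue, a change in how many cells of a type are present and a change in RNA per cell cannot be told apart.

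**Figure D2:**
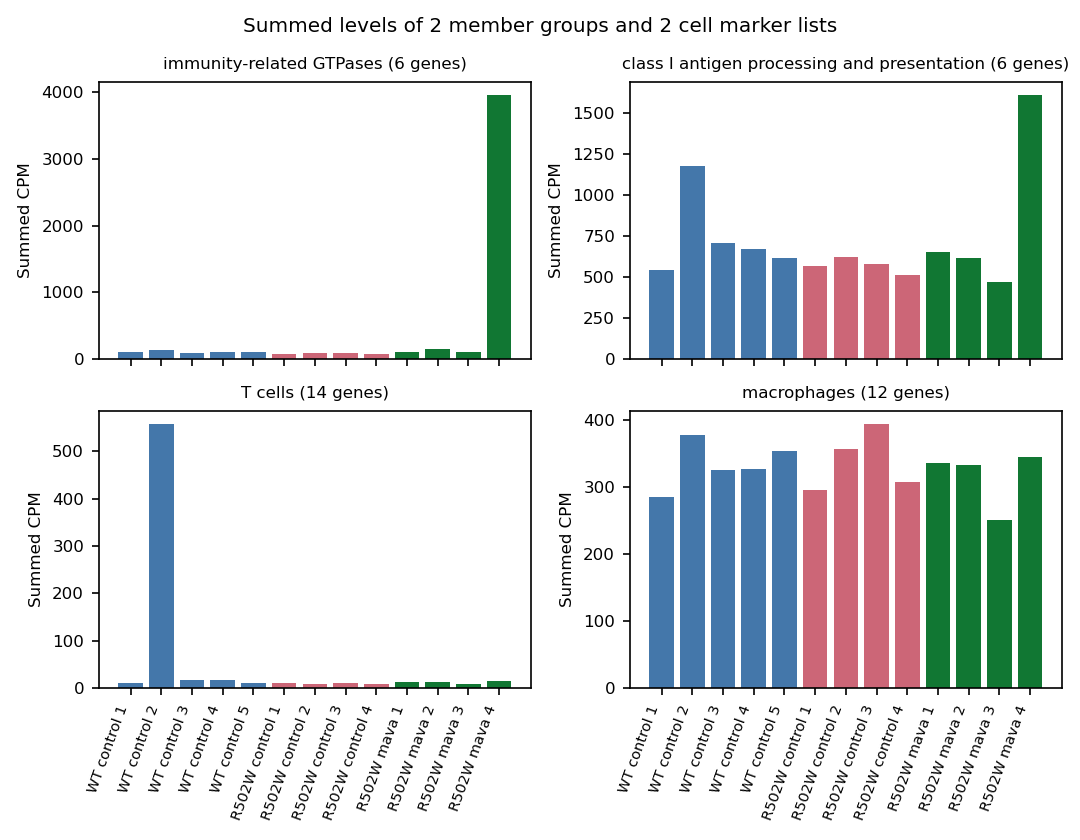
Summed CPM per library (bars, coloured by group) of the 6 immunity-related GTPases, the 6 class I antigen processing and presentation members, 14 T cell markers and 12 macrophage markers. The T cell sum is high in WT control replicate 2 alone at 558 CPM, whereas the GTPase sum is high in R502W mavacamten replicate 4 alone at 3962 CPM.

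Between R502W control and WT control, the genotype comparison, 1 of the 38 members rose (Rsad2) and none fell by edgeR's quasi-likelihood test at an adjusted p under 0.05. In that comparison 12.4% of all tested genes were called. Of all tested genes 8.63% were called higher and 3.75% lower, and the members' share of calls was below the background in this fit. The members' median log2 fold change was -0.26, and 13 of 38 were above 0, beside 48.9% of all genes. At an unadjusted p under 0.05, 1 of the 38 passed, beside 29.1% of all genes. Without R502W mavacamten replicate 4, which is in neither group compared but enters the estimate of the spread, the members' median SE was 0.21 in place of 0.58. In that fit 4 of the 38 were called (Rsad2, Gbp6 and Ifi44 higher, Irf1 lower), beside 12.3% of all genes, and 16 of the 38 passed an unadjusted p under 0.05, beside 30.1%. Between R502W mavacamten and R502W control, the treatment comparison, no member and no gene of the 15000 was called by edgeR (0%). At an unadjusted p under 0.05, 25 of 38 members and 525 genes (3.5%) passed in edgeR, and DESeq2 and limma voom called no member and 6 and 2 genes in all. All 38 members had log2 fold changes above 0, beside 50.8% of all genes, with a median of 1.71. Without replicate 4 the median was 0.12, 25 were above 0 and 6 passed an unadjusted p under 0.05, beside 2.94% of all genes. Between R502W mavacamten and WT control, 9 of 38 members rose and none fell, against 8.21% of all genes called, 5.93% higher and 2.29% lower. All 38 were above 0 there too, beside 50.3% of all genes. DESeq2 called 3 of the 38 (12.3% of all genes), and edgeR with only these 2 groups in the fit called 1 (1.47%). DESeq2 ran with its default outlier filter, which can withhold the p-value of a gene with an outlying library. A gene without a p-value was counted as not called. In both comparisons with the treated group, a member that DESeq2 did not call may therefore not have been tested by it. Without replicate 4 of the treated group, 2 of the 9 were still called (Rsad2 and Ifi213), against 4.55% of all genes called and 2.99% called higher, and the members' median moved from 1.56 to -0.05. The 3 comparisons share libraries in pairs: the WT control libraries serve both comparisons with WT, and the R502W control libraries serve both the genotype and the treatment comparison.

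**Figure D3:**
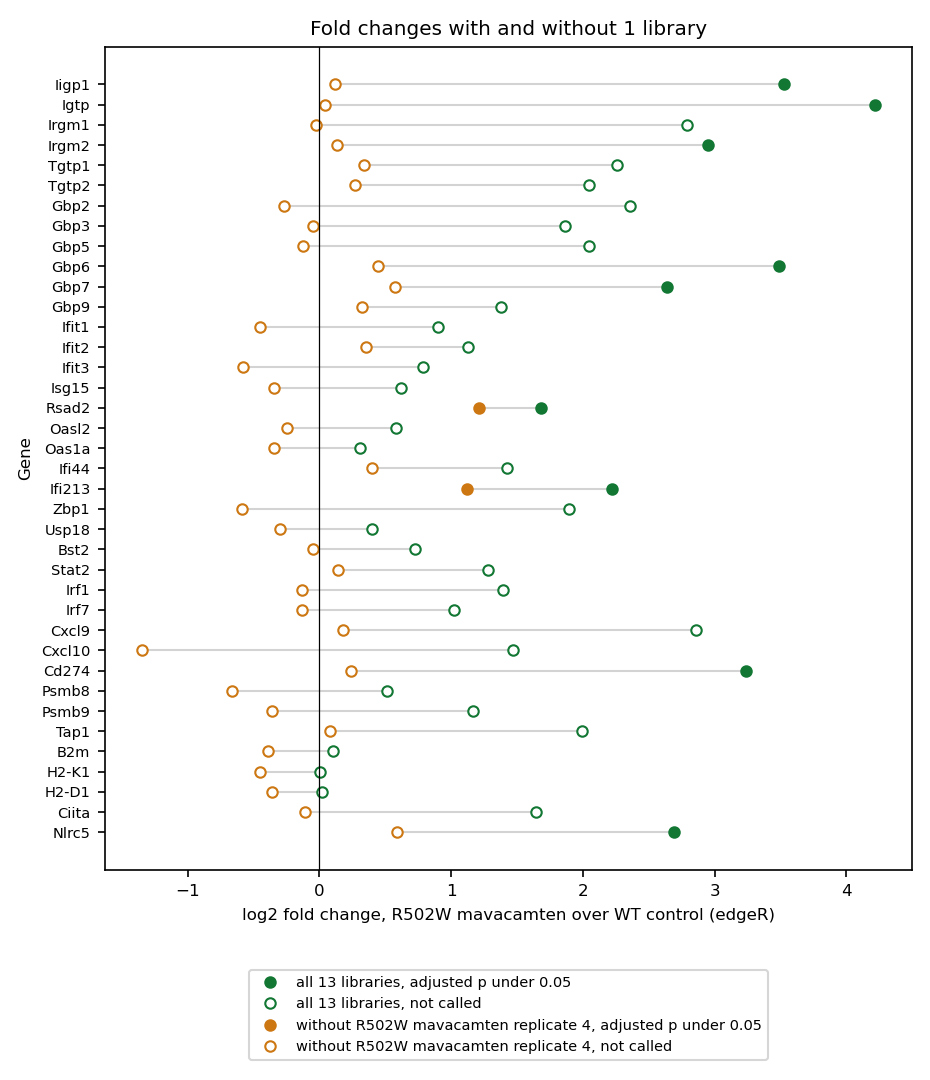
edgeR log2 fold change of each member between R502W mavacamten and WT control with all 13 libraries (green) and without R502W mavacamten replicate 4 (orange); filled points passed an adjusted p under 0.05. Most fold changes move to near 0 without that library, and Rsad2 (1.21) and Ifi213 (1.12) remain filled.

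The immunity-related GTPases disrupt the vacuoles in which intracellular bacteria and parasites live, and in mice they are among the most strongly induced targets of interferon gamma. The 6 members summed to 76.7 to 151 CPM in the 12 other libraries and to 3962 CPM in R502W mavacamten replicate 4. Iigp1 had levels of 35.0, 28.8, 25.9, 32.1 and 42.7 CPM in WT control, 23.7, 26.3, 25.1 and 21.5 CPM in R502W control, and 29.7, 48.8, 31.0 and 1404 CPM in R502W mavacamten. All 4 treated libraries lay above all 4 R502W control libraries, and the treated and WT ranges overlapped. Igtp (Irgm3), a regulatory GTPase that protects host membranes, had levels of 13.7, 28.6, 12.8, 12.3 and 12.4 CPM in WT control, 8.95, 13.6, 14.3 and 13.1 CPM in R502W control, and 15.2, 21.2, 14.0 and 1139 CPM in R502W mavacamten. Its ratio of replicate 4 to the next library was 39.9, the highest of the members. Irgm2, another regulatory GTPase, had levels of 23.6, 27.8, 20.6, 29.3 and 25.7 CPM in WT control, 18.7, 21.4, 20.5 and 18.5 CPM in R502W control, and 25.8, 35.3, 24.4 and 699 CPM in R502W mavacamten. Irgm1, which acts in autophagy, was at 14.8 to 22.7 CPM in the other libraries and 499 CPM in replicate 4. Tgtp1 and Tgtp2 are near-identical copies whose counts RSEM divided between them, with fractional values in all 13 libraries. They were at 1.24 to 7.01 CPM and 7.41 to 20.1 CPM in the other libraries, and at 69.0 and 152 CPM in replicate 4. Part of the Igtp and Irgm2 models lies in the same stretch of chromosome 11 on the same strand, so reads there could be divided between them as well.

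Of these 6 genes, 3 rose between WT control and R502W mavacamten: Igtp by 4.22 ± 1.12 on the log2 scale (± SE; edgeR adjusted p = 0.037), Iigp1 by 3.52 ± 0.95 (edgeR adjusted p = 0.0388) and Irgm2 by 2.95 ± 0.83 (edgeR adjusted p = 0.0438). Each call was lost without replicate 4, where the log2 fold changes were 0.04 ± 0.27, 0.12 ± 0.17 and 0.13 ± 0.13. With the counts of Tgtp1 and Tgtp2 summed, the log2 fold change was 2.11 ± 0.64 (edgeR adjusted p = 0.0591). In the genotype comparison all 6 had log2 fold changes below 0, from -0.72 for Tgtp1 to -0.29 for Irgm1, and none was called. Without the high library the values were similar, from -0.75 to -0.32, with smaller errors (median SE 0.19 against 0.82), and edgeR adjusted p-values ran from 0.0543 for Irgm2 to 0.351 for Tgtp2. In the treatment comparison without replicate 4 all 6 had log2 fold changes above 0, from 0.30 for Irgm1 to 1.09 ± 0.35 for Tgtp1. None was called, with an edgeR adjusted p of 1.00 for each and an unadjusted p under 0.05 for 5 of them. In 4 of the 6 (Iigp1, Irgm2, Tgtp1 and Tgtp2) every treated library, those other than replicate 4 included, was above every R502W control library. Over all genes this was so for 1.29% with the 4 treated libraries and for 2.56% with the 3.

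The guanylate-binding proteins are larger interferon-induced GTPases that coat pathogens and their vacuoles and promote inflammasome activation. Gbp6 differed between the untreated genotypes. It had levels of 30.0, 29.8, 27.8, 27.8 and 22.6 CPM in WT control and 48.1, 49.3, 53.8 and 46.1 CPM in R502W control, with no overlap. In R502W mavacamten it was at 42.7, 46.1, 26.1 and 1125 CPM, so 3 libraries lay above all WT libraries and the third lay among them. In the fit of all 13 libraries the genotype log2 fold change of Gbp6 was 0.84 ± 0.85 (edgeR adjusted p = 0.546). Without R502W mavacamten replicate 4 it was 0.81 ± 0.14 (edgeR adjusted p = 0.00406), a call made with that 1 library left out, although the 9 libraries compared were the same. With only the libraries of the 2 genotypes in the fit, Gbp6 was also called (0.84, edgeR adjusted p = 0.000847), as were 9.58% of all genes. Against WT control, R502W mavacamten was higher by log2 3.49 ± 0.89 (edgeR adjusted p = 0.0317), and by 0.44 ± 0.15 without replicate 4 (edgeR adjusted p = 0.106). Counts of Gbp6 were fractional in all 13 libraries, so reads were shared with another gene, and its close relative Gbp10 was at 210 CPM in replicate 4 and at most 1.83 CPM elsewhere.

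Gbp7 had levels of 14.1, 10.5, 11.2, 15.2 and 15.1 CPM in WT control, 19.1, 18.2, 18.2 and 13 CPM in R502W control, and 16.8, 23.5, 20.3 and 267 CPM in R502W mavacamten. Every treated library was above every WT library, as for 5 of the 38 members (Gbp7, Rsad2, Ifi213, Stat2 and Cd274) and 8.54% of all genes. Its log2 fold change against WT was 2.64 ± 0.68 (edgeR adjusted p = 0.0338), and 0.58 ± 0.16 without replicate 4 (edgeR adjusted p = 0.058). Gbp9 had the lowest ratio in replicate 4 of the 6 GBP members, with 139 CPM against 16.1 to 30.1 CPM elsewhere. Gbp2, Gbp3 and Gbp5 were at 403, 144 and 140 CPM in replicate 4, and their ranges in the other 12 libraries were 14.0 to 27.9, 7.10 to 16.0 and 7.51 to 12.2 CPM. None of these 4 was called in any comparison with all 13 libraries.

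The antiviral effectors and sensors act on viral RNA, proteins or budding, and most are classed as targets of type I interferon. As a group they rose less in replicate 4 than the GTPases: the median ratio to the other 12 libraries was 4.02 over 12 genes, beside 27.6 over the immunity-related GTPases and 15.2 over the GBPs, a description with no test. Rsad2 (viperin), which makes a chain-terminating nucleotide that blocks viral RNA synthesis, was the only member called between genotypes with all 13 libraries. It had levels of 8.51, 5.82, 4.65, 7.40 and 6.24 CPM in WT control (mean 6.52 ± 1.48 SD, n = 5) and 15.4, 15.1, 22.6 and 11.3 CPM in R502W control (mean 16.1 ± 4.71 SD, n = 4). In R502W mavacamten it was at 14.6, 19.8, 12 and 37.1 CPM. All 8 R502W libraries were above all 5 WT libraries, and treated and untreated R502W libraries overlapped. Non-overlap with R502W control higher occurred in 12.3% of all genes and in 4 of the 38 members, namely Rsad2, Gbp6, Ifi44 and Ifi213.

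The genotype log2 fold change of Rsad2 was 1.31 ± 0.30 (edgeR adjusted p = 0.0147), and 1.27 ± 0.22 without R502W mavacamten replicate 4 (edgeR adjusted p = 0.00342). Without R502W control replicate 3, its highest untreated library, it was 1.10 ± 0.31 and missed the threshold (edgeR adjusted p = 0.058). Against WT control the treated group was higher by 1.68 ± 0.30 (edgeR adjusted p = 0.00824), and by 1.21 ± 0.23 without replicate 4 (edgeR adjusted p = 0.015). Between the treated and untreated R502W groups the log2 fold change was 0.38 ± 0.31, and -0.06 ± 0.24 without replicate 4. Rsad2 was the only member called in both comparisons with WT, which share the WT libraries.

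Ifi213, a member of the DNA-sensing PYHIN family, had levels of 1.17, 1.38, 0.845, 0.735 and 1.13 CPM in WT control, 1.5, 2.11, 2.31 and 1.40 CPM in R502W control, and 1.80, 2.70, 2.55 and 12.5 CPM in R502W mavacamten. The WT libraries were all below the R502W libraries of both groups. Its log2 fold change in treated R502W against WT was 2.22 ± 0.50 (edgeR adjusted p = 0.0204), and 1.12 ± 0.29 without replicate 4 (edgeR adjusted p = 0.0467). The call was lost with only the 2 groups in the fit (edgeR adjusted p = 0.0708) and with a replicate block (edgeR adjusted p = 0.103). Each WT library held only 14 to 23 counts of Ifi213. In the genotype comparison its log2 fold change was 0.80 ± 0.51 (edgeR adjusted p = 0.323). Ifi44, an interferon-induced protein with antiviral activity, had levels of 2.20, 2.28, 1.51, 2.41 and 2.77 CPM in WT control, 3.85, 4.61, 5.01 and 2.80 CPM in R502W control, and 2.59, 3.80, 2.69 and 14.8 CPM in R502W mavacamten. Its highest WT and lowest R502W control libraries were 2.77 and 2.80 CPM. The genotype log2 fold change was 0.86 ± 0.46 (edgeR adjusted p = 0.233), and 0.83 ± 0.23 without replicate 4 of the treated group (edgeR adjusted p = 0.0329).

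**Figure D4:**
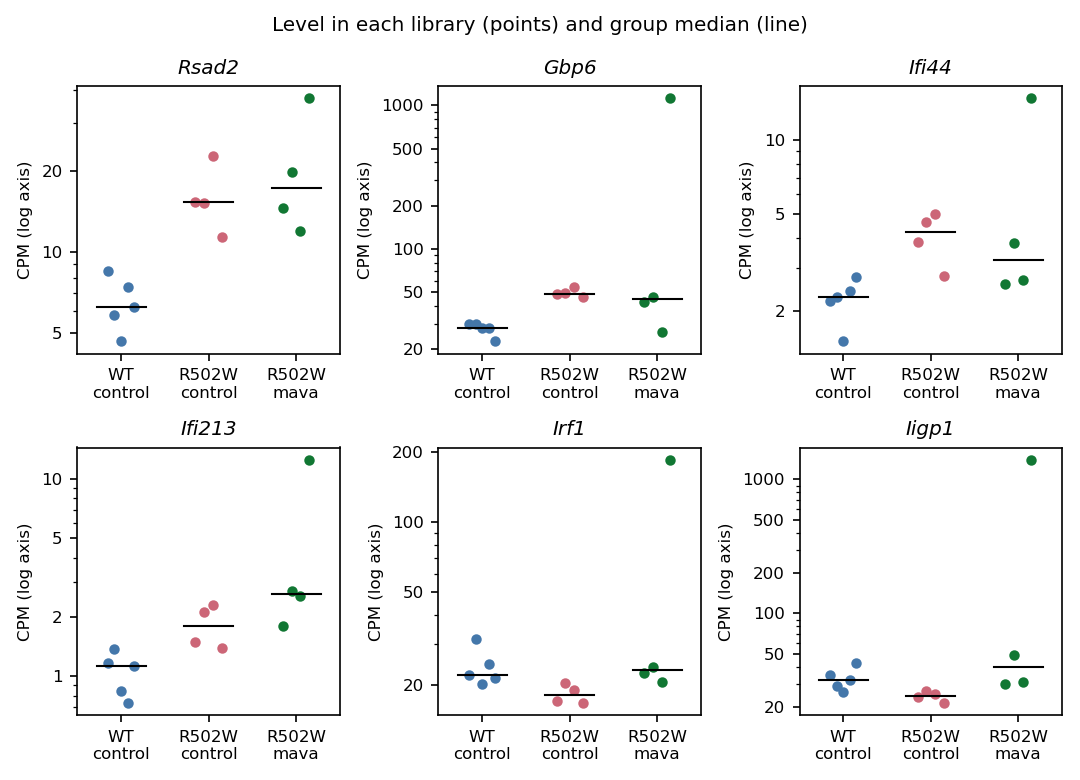
CPM on a log axis of 6 members in each library (points) by group, with a line at each group's median; "mava" stands for mavacamten. For Rsad2 and Ifi213 every R502W library is above every WT library, and in all 6 panels the topmost treated point is replicate 4.

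Zbp1, a sensor of Z-form nucleic acids that triggers necroptosis, had the highest ratio among the antiviral members. It had levels of 1.39, 3.66, 0.966, 1.73 and 1.51 CPM in WT control, 0.849, 1.39, 1.01 and 1.24 CPM in R502W control, and 1.18, 1.61, 0.991 and 23.8 CPM in R502W mavacamten. Bst2 (tetherin), which holds budding virus at the cell surface, was the most counted antiviral member. It had levels of 16.4, 26.6, 13, 13.3 and 17.5 CPM in WT control, 17.3, 20.8, 22 and 15.7 CPM in R502W control, and 19.6, 17.5, 14.3 and 62.9 CPM in R502W mavacamten. The 3 groups overlapped for both genes apart from the high library. The RNA-binding proteins Ifit1, Ifit2 and Ifit3 reached 27.5, 48.3 and 60.7 CPM in replicate 4, from medians of 4.39, 11.5 and 10.1 CPM in the other 12. Oasl2 and Oas1a, of the family that activates RNase L or related antiviral routes, reached 52.7 and 7.73 CPM from medians of 14.3 and 2.86 CPM. The ubiquitin-like modifier Isg15 reached 9.95 CPM from 2.59 CPM, and Usp18, the protease that removes it and restrains type I receptor signalling, reached 10.8 CPM from 3.13 CPM. None of these 9 genes was called in edgeR's fit of all libraries. Without replicate 4, 8 of the 12 antiviral members had treated-against-WT log2 fold changes below 0.

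Among the transcription factors, Irf1, which drives class I and GTPase genes, had levels of 22.1, 31.6, 20.3, 24.8 and 21.6 CPM in WT control, 17.2, 20.4, 19.1 and 16.8 CPM in R502W control, and 22.7, 24.0, 20.7 and 185 CPM in R502W mavacamten. The WT and R502W control ranges met at 20.3 and 20.4 CPM, and all treated libraries were above all R502W control libraries. Its genotype log2 fold change was -0.39 ± 0.55 with all libraries (edgeR adjusted p = 0.681) and -0.42 ± 0.12 without R502W mavacamten replicate 4 (edgeR adjusted p = 0.0418). Without that library Irf1 was therefore the member that fell, beside the 3 that rose (Rsad2, Gbp6 and Ifi44), while 12.3% of all genes were called in that fit, 7.29% higher and 4.97% lower. Stat2, a transcription factor of type I signalling, was at 17.5 to 25.2 CPM in the other 12 libraries and 123 CPM in replicate 4. Irf7, the amplifier of type I interferon production, was at 6.16 to 13.9 CPM and 46.5 CPM. Neither was called in any of the 3 comparisons.

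Of the chemokines and the checkpoint ligand, Cd274 (PD-L1), which restrains T cells through PD-1, had levels of 10.4, 10.6, 8.81, 9.97 and 8.38 CPM in WT control, 14.1, 10.2, 8.95 and 6.42 CPM in R502W control, and 11.6, 12.6, 10.7 and 328 CPM in R502W mavacamten. All 4 treated libraries were above the 5 WT libraries, by a small margin outside replicate 4. The log2 fold change against WT was 3.24 ± 0.88 (edgeR adjusted p = 0.0397), and 0.24 ± 0.19 without replicate 4 (edgeR adjusted p = 0.462). The CXCR3 ligands Cxcl9 and Cxcl10, which attract activated T cells, were at 91.5 and 10.4 CPM in replicate 4. Elsewhere Cxcl9 was at 1.81 to 6 CPM and Cxcl10 at 0.196 to 1.74 CPM, and neither was called. Cxcl11, the third ligand of that receptor, was at most 0.27 CPM in any library.

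The class I genes had the lowest median ratio in replicate 4 of the 7 roles (3.86, beside 4.02 for the antiviral members), and 3 of them had the highest levels elsewhere. Per kb of exon, the scale on which genes can be compared, the median level of the other 12 libraries was 197 CPM per kb for B2m, 82.3 for H2-D1, 66.6 for H2-K1 and 19.3 for Bst2, and 6.74 for Igtp. In replicate 4, Igtp was at 563 CPM per kb and B2m at 469. H2-D1, a class I heavy chain, had levels of 189, 383, 240, 211 and 219 CPM in WT control, 197, 212, 214 and 182 CPM in R502W control, and 224, 213, 156 and 413 CPM in R502W mavacamten. WT control replicate 2 was within 1.08-fold of replicate 4. H2-K1, the other classical heavy chain here, reached 389 CPM in WT control replicate 2 and 425 CPM in replicate 4 of the treated group, and its light chain B2m reached 315 and 404 CPM. In WT control replicate 2 these levels stood beside 558 CPM of T cell markers, and in the treated library beside 15.9 CPM. The part of T cells in the class I levels was not tested.

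Tap1, a subunit of the transporter that brings peptides to class I molecules, had levels of 11.1, 34.6, 15.2, 14.8 and 14.7 CPM in WT control, 15.7, 16.8, 15.5 and 15.1 CPM in R502W control, and 22.5, 19.9, 16.1 and 229 CPM in R502W mavacamten. The immunoproteasome subunits Psmb8 and Psmb9 were at 71.6 and 70.9 CPM in replicate 4 and at 38.4 and 20.3 CPM in WT control replicate 2. Their ranges in the remaining libraries were lower, and Psmb8 in R502W control (10.5 to 12.5 CPM) lay below all WT libraries (12.9 to 38.4 CPM). Psmb8 was the only member of the 38 with R502W control wholly below WT control, a pattern seen in 5.45% of all genes, at a log2 difference of -0.75 ± 0.54 (edgeR adjusted p = 0.382). Tap1 and Psmb9 overlap on opposite strands and the sources used here do not give the strand setting of the counting. None of the 6 class I members was called in any comparison. With both WT control replicate 2 and R502W mavacamten replicate 4 left out, Tap1 (log2 0.45, edgeR adjusted p = 0.0479) and Tgtp2 (0.54, edgeR adjusted p = 0.0389) were called higher in treated R502W than in WT, beside Rsad2 and Ifi213. That fit called 1155 of 15025 genes, 787 of them higher.

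Nlrc5 and Ciita encode the transactivators of class I and class II MHC genes. Nlrc5 had levels of 3.01, 6.96, 5.25, 5.93 and 4.47 CPM in WT control, 8.17, 6.22, 8.16 and 5.59 CPM in R502W control, and 6.13, 10.04, 7.58 and 109 CPM in R502W mavacamten. Its log2 fold change in treated R502W against WT was 2.69 ± 0.72 (edgeR adjusted p = 0.0371), and 0.59 ± 0.24 without replicate 4 (edgeR adjusted p = 0.164). Ciita was at 1.25 to 6.78 CPM in the other 12 libraries, highest in WT control replicate 2, and at 38.1 CPM in replicate 4. It was not called in any comparison.

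The rest of the interferon pathway was read from lists of 122 genes, of which 108 passed the filter on low counts. Interferon transcripts themselves were near or at 0. Ifng had 3 counts in R502W mavacamten replicate 4 (0.162 CPM) and at most 1 count in any other library, and the 8 type I and type III interferon genes listed had no count in any library; lower levels were not detectable at this depth. Of 16 receptor and JAK-STAT genes none was called in any comparison. R502W mavacamten replicate 4 was the highest library for 7 of the 16, beside 9.9% of all genes. Among these, Irf9 had 935 counts there and 188 to 398 elsewhere, and Irf8 had 675 counts there and 90 to 275 elsewhere. Ptpn2, a phosphatase that acts on JAK and STAT proteins, was at 7.45 to 11.9 CPM in all 13 libraries. Of the receptor chains, Ifnar2 was highest in replicate 4, at 36.4 CPM against 23.2 to 32.0 CPM elsewhere, and Ifngr2 was lowest there, at 84.4 against 92.4 to 130 CPM. Ifngr1 was at 44.7 CPM in it against 38.5 to 73.3 CPM elsewhere, and Ifnar1 at 29.7 against 26.3 to 31.2 CPM. Socs1, the feedback inhibitor of this signalling, reached 8.76 CPM in replicate 4, where the next library, WT control replicate 2, had 4.68 CPM and the rest at most 1.4 CPM.

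Of 15 nucleic acid sensing genes, 1 rose in the genotype comparison: Mavs, the mitochondrial adaptor of the RIG-I-like receptors, by log2 0.32 ± 0.08 (edgeR adjusted p = 0.0267; 56.8 to 64.7 CPM in WT control and 69.8 to 84.8 CPM in R502W control). Over all tested genes 12.4% were called in that comparison and 8.63% were called higher. Mavs was at 61.2 CPM in R502W mavacamten replicate 4, inside the range of the WT libraries. Of 16 other class I genes and 12 tested class II genes none was called with all 13 libraries. The 2 with the smallest p in the class I list were H2-T24, at a log2 difference of 1.04 ± 0.33 in treated R502W against WT (edgeR adjusted p = 0.0709; 0.46 ± 0.24 without replicate 4), and Psme1, at -0.48 ± 0.16 between genotypes (edgeR adjusted p = 0.0667). Without R502W mavacamten replicate 4, Psme1 was called lower in R502W control (-0.51 ± 0.12, edgeR adjusted p = 0.018). The 2 with the smallest p in the class II list were H2-Aa and Cd74, at -1.06 ± 0.38 and -0.90 ± 0.35 between genotypes (edgeR adjusted p = 0.0831 and 0.108). H2-Aa had 636, 2616, 1180, 1533 and 876 counts in WT control, highest in replicate 2. In R502W control it had 441, 858, 812 and 684 counts, and the groups overlapped in CPM. It was also called lower in R502W control without R502W mavacamten replicate 4 (-1.09 ± 0.31, edgeR adjusted p = 0.04). That fit called 12.3% of all genes, 4.97% lower. Psme1 is a proteasome activator subunit, H2-T24 a nonclassical class I gene, H2-Aa a class II chain and Cd74 the invariant chain. Cd74 reached 365 CPM in WT control replicate 2, was at 236 CPM in R502W mavacamten replicate 4 and lay at 74.3 to 179 CPM in the others, the reverse order of these 2 libraries from the class I members.

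Of 49 other interferon-stimulated genes tested, Ifit1bl1, an Ifit family gene, fell in R502W control by 0.83 on the log2 scale (SE 0.17, edgeR adjusted p = 0.00724), from 4.10 to 6.87 CPM in WT control to 2.81 to 3.67 CPM. In R502W mavacamten replicate 4 it was at 4.22 CPM, close to the 3.75 to 4.12 CPM of the other treated libraries. Without that library 4 more of the 49 were called between genotypes, beside 12.3% of all genes (12.4% with all 13 libraries). Parp9 (log2 0.37), Parp14 (0.31) and Dtx3l (0.45), which act in ADP-ribosylation and ubiquitination, were higher in R502W control, and Gm12250 (-1.62) was lower. In treated R502W against WT 7 of the 49 were called, all higher, beside 8.21% of all genes called and 5.93% called higher. F830016B08Rik and Gm12250, which belong to the immunity-related GTPases, were at 817 and 169 CPM in replicate 4 and at most 11 and 1.31 CPM elsewhere, and Gbp10 was at 210 CPM. Ifi208, a PYHIN gene like Ifi213, was at 1.44 to 2.05 CPM in WT control, 1.45 to 1.91 CPM in R502W control and 3.04, 2.77, 2.27 and 7.95 CPM in R502W mavacamten, so all 4 treated libraries were above the 9 untreated ones. Its log2 fold change was 1.25 ± 0.33 against WT (edgeR adjusted p = 0.0339) and 0.64 ± 0.22 without replicate 4 (edgeR adjusted p = 0.108). The other 3 called were Gbp4, Gm4951 and Ifi203, with log2 fold changes of 2.48, 3.08 and 0.69. Without replicate 4 none of these 7 was called, and Ifi207, another PYHIN gene, was called lower (-0.65 ± 0.13, edgeR adjusted p = 0.0177). In that fit 4.55% of all genes were called and 1.56% were called lower.

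**Figure D5:**
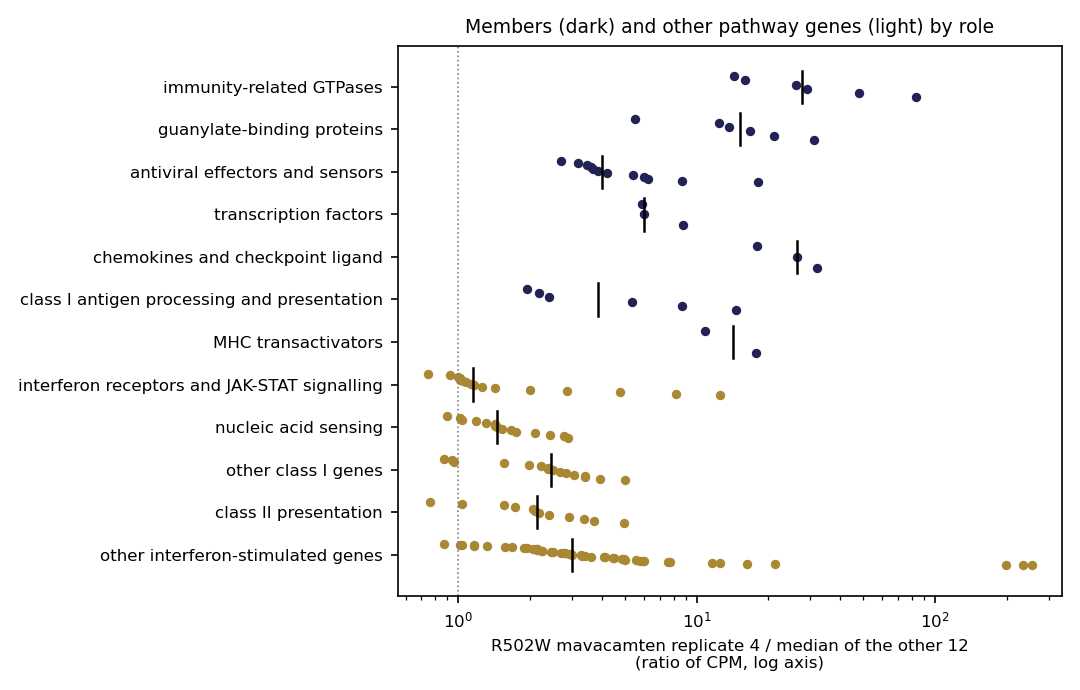
Ratio of CPM in R502W mavacamten replicate 4 to the median CPM of the other 12 libraries (log axis) for each of the 38 members (dark points) and the 108 other pathway genes tested (light points), by role, with a line at each role's median and a dotted line at 1. Medians run from 27.6 for the immunity-related GTPases to 1.15 for the interferon receptors and JAK-STAT genes.

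By promoter content, the 19 members with an ISRE core had a median ratio of 12.4 in replicate 4 (2.39 to 83.5), and the 12 matched members without one had 5.70 (1.95 to 31.9). The 11 members with a GAS had a median of 13.7 (2.71 to 83.5) and the 20 without had 6.13 (1.95 to 31.9). Oas1a and Bst2, which hold both motifs without the paired spacing, had ratios of 2.71 and 3.62. Igtp and Irgm2, which carry the paired elements printed above, had ratios of 83.5 and 29.1, and Tgtp1 and Tgtp2, which carry them too, had 16.0 and 14.3. Rsad2, with 1 ISRE core and no GAS in its window, had 3.19, Isg15 with 3 overlapping ISRE matches had 3.84, and B2m with 1 had 2.39. Members with an ISRE core and no GAS ran from this value of B2m to 26.1 for Irgm1. Among them Gbp2 had 21.1 and Cxcl10 had 17.9, so these and Irgm1 were above Tgtp1 and Tgtp2. Cd274 and Cxcl9 had neither motif in their windows and ratios of 31.9 and 26.3. These are descriptions of genes chosen with their levels known, with no test.

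Genes outside the lists that followed the members most closely were ranked by Spearman's rho, over 13 libraries, between their log2 CPM and the members' mean z-score. The 8 highest were Pip4k2a (0.912), Icam1 (0.907), Gm37401 (0.880), Akna (0.879), Fgr (0.874), Arhgap8 (0.868), Fcgr4 (0.868) and Mir99ahg (0.852). The members' mean z-score was highest in R502W mavacamten replicate 4 (2.95), then WT control replicate 2 (0.35) and R502W mavacamten replicate 2 (0.02), and lowest (-0.52) in R502W mavacamten replicate 3 and R502W control replicate 4. Icam1, an adhesion molecule for leukocytes, was at 33.1 CPM in replicate 4 and 14.5 to 23.6 CPM elsewhere. Pip4k2a was at 23.9 CPM in WT control replicate 2, above the 14.0 CPM of replicate 4. All points share these 13 libraries, 2 of which stand apart, so the values describe the ranking only.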

How the data were processed

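Whole-heart RNA was poly(A)-selected and made into strand-specific libraries, per the labels' protocols. The deposited table holds expected counts per Ensembl gene, estimated by the authors. RSEM is the counting tool named per the submitters' processing notes. These also name cutadapt, FastQC, DESeq2 and the build GRCm38, without versions. Of all values 5.76% were fractional. The sources used here do not give the aligner.

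Symbols, coordinates and exonic lengths came from GENCODE M21 (GRCm38) by gene ID. Expected counts were rounded and tested in R 4.3.3 with edgeR 4.0.16: filterByExpr (minimum count 10, minimum total 15), which left 15000 genes and all 38 members, TMM factors, and a quasi-likelihood fit with 1 mean per group over 13 libraries (biological coefficient of variation 0.232). Adjusted p-values are Benjamini-Hochberg values over all tested genes, with a threshold of 0.05. Fold changes are edgeR's log2 estimates, with SE derived from the F statistic. On simulated counts the test called 74% of 2-fold changes for genotype, 53% for treatment and 62% for treated R502W against WT. Of 4-fold changes it called 91%, 92% and 88%. No library was simulated to stand apart across many genes as R502W mavacamten replicate 4 did, so that case was not checked. Z-scores used log2(CPM + 0.5). Within groups the chi-square per degree of freedom between libraries was 7.31 or more, so no library was a copy of another.

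The members and lists were chosen with earlier results of these data known. Values in every library are given for members called in a comparison and, in each role, for the member with the highest mean CPM and that with the highest ratio of top library to median; of each pathway role, up to 4 called genes or else the 2 with the smallest p (1 of these is not reported here); and 8 genes of most similar ranking. Ifi44 and other genes given per library or by name beyond this rule, among them the remaining members, marker genes and receptor chains, were chosen after their values were seen. Alternatives were RLE factors, DESeq2 1.42.0, limma 3.58.1 voom with sample weights, robust edgeR, other filters, only the groups compared, a length correction, a replicate block, Tgtp1 and Tgtp2 summed, and leaving out libraries. Promoter windows were RefSeq's (GRCm38.p6). Replicate numbers do not pair the samples.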

Additional observations from a re-analysis of the deposited data

Results flagged for a closer look

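A library was singled out where its gap to the nearest library of its group, divided by the group's range, passed Dixon's 95% critical value. Chance alone marks about 5% of groups, and over all tested genes the share was 11.4% in WT control, 5.66% in R502W control and 6.65% in R502W mavacamten.

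R502W mavacamten replicate 4 lay far above its group for 32 of the 38 members. Its CPM values among the GTPases were 1404 for Iigp1, 1139 for Igtp, 499 for Irgm1, 699 for Irgm2, 69.0 for Tgtp1 and 152 for Tgtp2. Among the guanylate-binding proteins they were 403 for Gbp2, 144 for Gbp3, 140.1 for Gbp5, 1125 for Gbp6, 267 for Gbp7 and 139 for Gbp9. Among the antiviral members they were 27.5 for Ifit1, 48.3 for Ifit2, 60.7 for Ifit3, 52.7 for Oasl2, 14.8 for Ifi44, 12.5 for Ifi213, 23.8 for Zbp1 and 62.9 for Bst2. The remaining values were 123 for Stat2, 185 for Irf1, 46.5 for Irf7, 91.5 for Cxcl9, 10.4 for Cxcl10, 328 for Cd274, 71.6 for Psmb8, 70.9 for Psmb9, 229 for Tap1, 404 for B2m, 38.1 for Ciita and 109 for Nlrc5.

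WT control replicate 2 lay far above its group for 9 members: 28.6 CPM for Igtp, 20.1 for Tgtp2, 5.52 for Oas1a, 3.66 for Zbp1, 38.4 for Psmb8, 20.3 for Psmb9, 34.6 for Tap1, 389 for H2-K1 and 383 for H2-D1. R502W control replicate 4 lay below its group for 2 members, at 13 CPM for Gbp7 and 6.84 CPM for Psmb9.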

How the results depend on the processing

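Between genotypes, the 1 called member (Rsad2) became 3 with only the 2 groups compared in the fit, 0 with the replicate block and 4 without both WT control replicate 2 and R502W mavacamten replicate 4. Leaving out 1 library gave 0 (without R502W control replicate 3) to 4 (without R502W mavacamten replicate 4). All genes called went from 1856 to 963 with the replicate block and ranged from 866 (without R502W control replicate 2) to 1870 with 1 library left out. In the treatment comparison no member was called under any alternative run, and all genes called were 6 with DESeq2 and 2 with limma voom. DESeq2 can withhold the p-value of a gene with an outlying library, and such a gene was counted as not called. Against WT, the 9 called members of treated R502W became 3 with DESeq2, 2 with limma voom, 2 with robust edgeR, 1 with the 2 groups alone, 4 with the length trend removed, 4 without both libraries and 0 with the replicate block. With 1 library left out they ranged from 2 to 12: 2 or 3 without any 1 WT library, 2 to 4 without any 1 R502W control library, and 12, 8, 11 and 2 without treated replicates 1, 2, 3 and 4. All genes called there went from 1232 to 740 without a filter, 216 with the 2 groups alone, 631 with the length trend removed and 349 with the replicate block, and ranged from 359 (without R502W mavacamten replicate 2) to 1213 with 1 library left out. The cause of these changes was not tested.

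The members' median log2 difference with limma voom was 0.52 for treatment and 0.51 against WT, beside 1.71 and 1.56. Replicate numbers did not pair the samples: correlations of same-numbered libraries ran from -0.323 to 0.253. With the replicate block Rsad2 was at 1.34 between genotypes (edgeR adjusted p = 0.0584) and 1.62 against WT (edgeR adjusted p = 0.0525). No value of a called gene reversed. Members under about 3 CPM, such as Cxcl10, Zbp1 and Ifi213, rest on few counts.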

Other observations

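Of the 122 genes that were at least 2-fold higher in R502W mavacamten replicate 4 than in any other library, 63 (51.6%) were in the member or pathway lists and 59 were in neither. The lists were chosen with earlier results of these data known, so this share is a description. Whether genes outside the lists respond to interferon was not tested. Genes of these 59 named here were chosen after their values were seen. Gm4841 was at 582 CPM, 404-fold above the next library, and BC023105 at 271 CPM, 183-fold above it. Batf2, a transcription factor of the basic leucine zipper family, was at 23.5 CPM (17.4-fold), and Wars, the tryptophanyl-tRNA synthetase, at 297 CPM (5.90-fold). Serpina3g, a serine protease inhibitor, was at 42.0 CPM (8.43-fold). Gm12185, which carries the paired promoter elements of Igtp and Irgm2 and did not pass the filter on low counts, was at 111 CPM in that library and 0.189 to 0.945 CPM elsewhere.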
